A study of Gallus gallus with 89 samples.

Results

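The genes described here are the FOX, SOX and KLF transcription factors of the chick amniogenic somatopleure, chosen as every row of the gene table whose symbol begins with FOX, a letter and a number, with SOX and a number, or with KLF and a number. The rule found 40 of 13823 gene rows, of which 17 were FOX genes, 11 SOX genes and 12 KLF genes. The gene table of the RefSeq annotation lists 68 such symbols for chicken, and 38 of these had a row here. The other 30, among them SOX2, SOX7, SOX10, KLF4, FOXD3, FOXF2 and FOXP1, were not analysed here. The row named FOXP3 is given under that name, although RefSeq lists FOXP3 as a synonym of FOXP1 in chicken.

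FOX factors bind DNA through a forkhead domain, SOX factors through an HMG box that bends the helix, and KLF factors through zinc fingers that recognise GC-rich elements. Closely related members often share targets and stand in for each other, and different members are known from epithelia, mesenchyme, endothelium and dividing cells. The amniogenic somatopleure is the paired layer of ectoderm and lateral plate mesoderm from which the folds of the amnion arise.

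Reads were counted in 89 single cells from wild-type, untreated chick embryos at embryonic day 1.5 (stage 10). Grafts of ectoderm with mesoderm from more than 15 embryos were pooled, dissociated with trypsin, and captured as single cells on a Fluidigm C1 array. Because the pooled tissue makes up 1 sample, its cells are not replicates, no test was made and SDs are over cells. Shares carry 95% intervals by the exact Clopper-Pearson method, which include only counting error. For a share of 0, the upper limit given is instead 3 divided by the number of cells. The median cell had 1464140 reads in genes (lowest 328645, highest 2381723), and cell titles began with X09 (58 cells) or X29 (31 cells), a prefix whose meaning the labels do not give.

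Levels are read counts scaled to the total a cell had in genes (CPM), and detection of a gene means at least 10 CPM in that cell. CPM is not corrected for gene length, so levels are compared between cells and not between genes. A cell was placed in the ectoderm state when it detected at least 2 of the 3 genes CDH1 (E-cadherin), TFAP2A (a regulator of surface ectoderm) and CLDN3 (a tight junction protein). This put 27 cells in the ectoderm state and left 62 others. These were divided by CDX2, a caudal homeobox gene, into 41 CDX2-detecting and 21 CDX2-non-detecting cells. The prefixes were spread unevenly. X09 and X29 cells numbered 14 and 13 in the ectoderm state, 33 and 8 among CDX2-detecting and 11 and 10 among CDX2-non-detecting cells. The ectoderm state is a range cut from a score: 54 cells detected none of the 3 genes, 8 detected 1, 8 detected 2 and 19 detected all 3. Genes outside the rule followed the cut. Of 7 other ectoderm markers with enough detection, 6 were higher in the ectoderm state, and all 12 lateral plate mesoderm markers were higher in the other cells, where their summed level had a median of 2310 CPM against 34.8 CPM in the ectoderm state. The ectoderm state held up to 1539 CPM of those mesoderm markers in a single cell. Of markers of other cell types, EGFL7 of endothelium, HBZ of blood and TNNT2 of heart muscle were higher in the other cells. NKX2-5 of heart muscle was higher in the ectoderm state. No marker of neural crest, neural plate or notochord and endoderm met the size rule given below, although means could differ. MSX1 of neural crest had means of 514 CPM in the ectoderm state and 1542 CPM in the other cells, detected in 88.9% and 88.7%. TFAP2B of neural crest lay the other way, at means of 12.8 and 3.81 CPM.

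Median reads per cell were 1545735 in the ectoderm state, 1407465 in CDX2-detecting and 1464885 in CDX2-non-detecting other cells, and median genes with a read were 5476, 5759 and 5402. A median of 9 members was detected per ectoderm-state cell (range 1 to 16), 6 per CDX2-detecting cell (0 to 16) and 9 per CDX2-non-detecting cell (1 to 15). A gene met the size rule between groups of cells when its mean CPM, with 1 CPM added, was at least 2 times higher on one side, its share of detecting cells was at least 20 percentage points higher, and the means pointed the same way in X09 and X29 cells. Genes detected in under 10% of both groups were not compared.

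**Figure D1:**
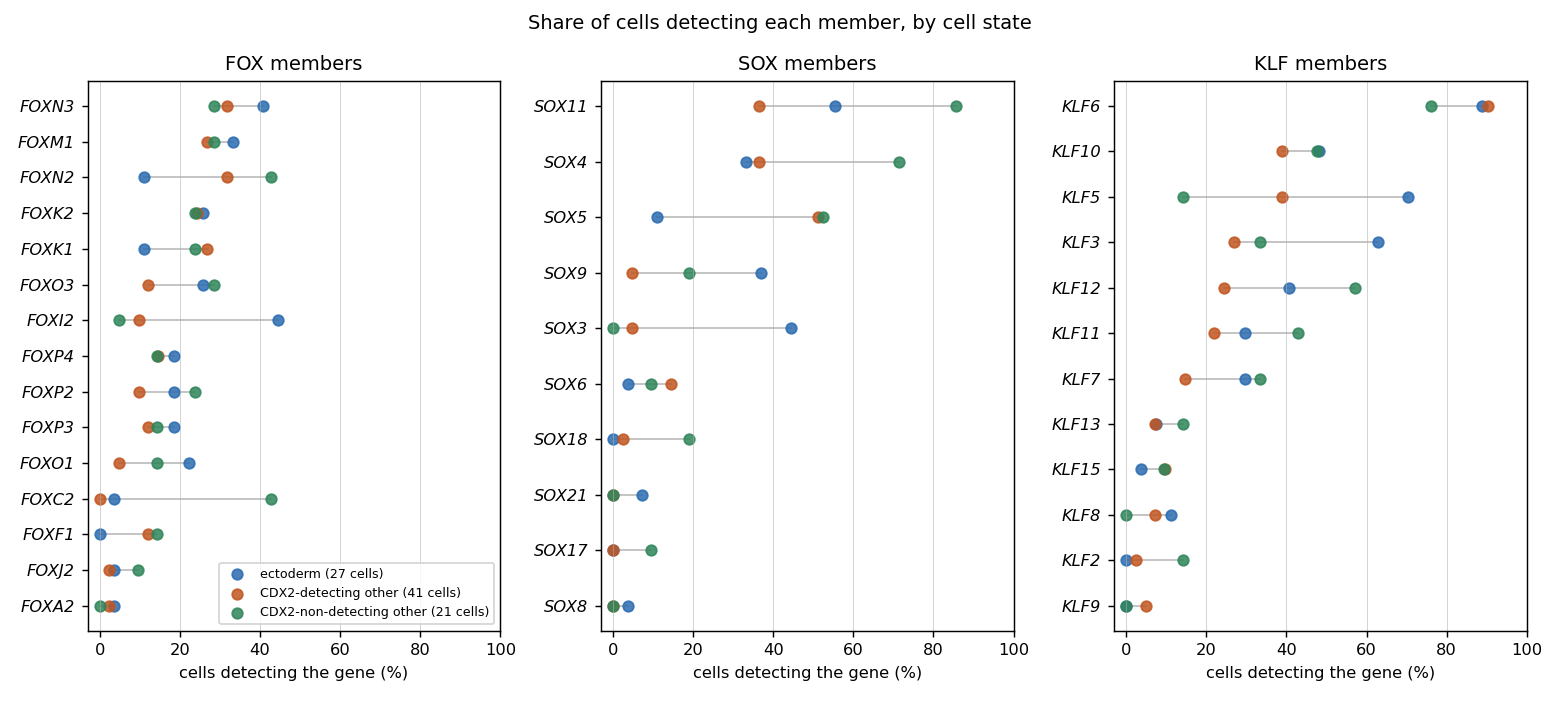
Share of cells (x axis, %) detecting each of the 37 detected members at 10 CPM or more, by family, in 27 ectoderm-state cells (blue), 41 CDX2-detecting (orange) and 21 CDX2-non-detecting other cells (green), with a grey line joining the lowest and highest share. KLF6 lies at 76.2% or more in every state, while FOXI2, SOX3 and KLF5 reach their highest share in the ectoderm state and FOXC2 and SOX11 in CDX2-non-detecting cells.

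Of the 40 members, 4 were higher in the ectoderm state and 1 was higher in the other cells. A further 10 were shared, meaning detected in at least 20% of the cells of each state, and 7 were rare, meaning detected in fewer than 10% of the cells of every state. Another 15 were uneven, fitting none of these classes, and 3 were detected in no cell. These classes take no account of the comparison by CDX2 described below. The shared members thus include SOX11, SOX4 and KLF12, and the uneven ones FOXC2, all higher in CDX2-non-detecting other cells. Low detection limited the comparison between layers to 27 members, which were selected by their level. Of these 14.8% were higher in the ectoderm state, beside 4.98% of all 9752 genes compared, and 3.70% were higher in the other cells, beside 4.76% of all genes. The median log2 ratio of ectoderm-state to other cells was 0.23 over the 27 members and -0.03 over all genes compared.

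FOXI2, SOX3, SOX9 and KLF5 were the members higher in ectoderm-state cells. FOXI2 belongs to the FOXI class of forkhead factors, known from cranial ectoderm and the otic placode. Its level ran from 0 to 1487 CPM over ectoderm-state cells, with a median of 5.68 CPM, and from 0 to 118.2 CPM over other cells, with a median of 0. It was detected in 12 of 27 ectoderm-state cells (44.4%, interval 25.5 to 64.7%) and in 5 of 62 others (8.06%, interval 2.67 to 17.8%). The ranges overlapped, since many ectoderm-state cells lay at 0. Mean FOXI2 was 109.7 ± 299 CPM (SD, 27 cells) against 3.77 ± 16.7 CPM (SD, 62 cells), a 23.2-fold difference that was 12.1-fold without the highest cell. The 8 cells with exactly 2 ectoderm genes carried most of it, at a mean of 306 CPM with 5 cells detecting, against 26.9 CPM and 7 of the 19 cells with all 3. When the ectoderm state required all 3 genes, those 8 cells counted as other and the direction of the mean turned, to a log2 ratio of -0.49. The 8 cells included the highest cell, at 1487 CPM, and had a median of 76.4 CPM. The turned ratio was not recomputed without the highest cell. The 54 cells with none of the 3 genes had a mean of 0.785 CPM, with 1 cell detecting FOXI2.

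SOX3, a SOXB1 factor of early ectoderm and the neural plate, was nearly confined to the ectoderm state. It was detected in 12 of 27 ectoderm-state cells (44.4%, interval 25.5 to 64.7%), at 0 to 223.3 CPM with a median of 0, and in 2 of 62 others (3.23%, interval 0.393 to 11.2%). Neither of those 2 cells lacked ectoderm genes: among the 54 cells with none of CDH1, TFAP2A and CLDN3, SOX3 had no read in any. Mean SOX3 was 34.4 ± 53.9 CPM (SD, 27 cells) against 3.32 ± 18.2 CPM (SD, 62 cells), or 8.18-fold, and 6.50-fold without the highest cell. The share was 57.1% of X09 and 30.8% of X29 ectoderm-state cells, against 4.55% and 0% of the others. Of the 12 ectoderm-state cells detecting FOXI2 and the 12 detecting SOX3, 8 were the same cells.

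SOX9, a SOXE factor of cartilage, neural crest and epithelial progenitors, was detected in 10 of 27 ectoderm-state cells (37.0%, interval 19.4 to 57.6%) at up to 60.6 CPM. Outside the ectoderm state it was detected in 6 of 62 cells (9.68%, interval 3.63 to 19.9%) at up to 23.6 CPM, 4 of them among the 21 CDX2-non-detecting cells. Mean SOX9 was 14.4 ± 20.6 CPM (SD, 27 cells) against 1.88 ± 5.38 CPM (SD, 62 cells), 5.35-fold. Both states held cells at 0. At a detection limit of 50 CPM the calls of FOXI2, SOX3 and SOX9 were lost and that of KLF5 remained. That limit also applied to CDH1, TFAP2A and CLDN3, whose ectoderm-state medians were 63.5, 62.1 and 39.5 CPM. The ectoderm state was thus drawn again and need not hold the same 27 cells. The SOX9 call was also lost with X29 cells alone.

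KLF5, a factor of proliferating epithelia, was not restricted to the ectoderm state. It ran from 0 to 215.3 CPM over ectoderm-state cells with a median of 65 CPM, and 19 of 27 cells detected it (70.4%, interval 49.8 to 86.2%). In CDX2-detecting other cells 16 of 41 detected it (39%, interval 24.2 to 55.5%), and in CDX2-non-detecting cells 3 of 21 (14.3%, interval 3.05 to 36.3%). Many cells outside the ectoderm state thus held KLF5, and the ranges overlapped. Its mean was 65.9 ± 61.8 CPM (SD, 27 cells) against 17.4 ± 32 CPM (SD, 62 cells), 3.64-fold, and its difference between CDX2-detecting and CDX2-non-detecting cells, 1.56-fold, missed the size rule.

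The 4 genes were seldom all present in a cell. Of 27 ectoderm-state cells, 26 detected at least 1 of them, 11 exactly 1, 5 exactly 2, 8 exactly 3 and 2 all 4. Of the 62 other cells, 36 detected none and 22 exactly 1. The 4 were chosen by their level in the ectoderm state, so fewer in the other cells is no further result. In 1 cell outside the ectoderm state all 4 were detected, FOXI2 at 10.1 CPM, KLF5 at 87.1 CPM, SOX3 at 84.8 CPM and SOX9 at 23.6 CPM. That cell had TFAP2A as its only gene of the 3, detected 10 of 12 mesoderm and 5 of 10 ectoderm markers, and with 9015 genes had the most genes with a read of any cell. Whether it held RNA of more than 1 cell was not tested, and the 4 calls were also made without it.

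SOX5 was the member higher in cells outside the ectoderm state. It is a SOXD factor that acts with SOX6 beside SOX9 in cartilage. SOX5 ran from 0 to 489.4 CPM over the other cells, with a median of 15.9 CPM, and from 0 to 67.2 CPM over ectoderm-state cells, with a median of 0. It was detected in 32 of 62 other cells (51.6%, interval 38.6 to 64.5%) and 3 of 27 ectoderm-state cells (11.1%, interval 2.35 to 29.2%), with mean levels of 54.3 ± 85.9 CPM (SD, 62 cells) and 3.98 ± 13.8 CPM (SD, 27 cells). The difference was 11.1-fold, and 9.66-fold without the highest cell. CDX2 did not divide the cells with SOX5, which made up 51.2% of CDX2-detecting and 52.4% of CDX2-non-detecting cells. Its partner SOX6 was detected in 8 of the 62 other cells and in 1 ectoderm-state cell, and the 6 cells with both genes all lay outside the ectoderm state.

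Further members had few or no detecting cells in the ectoderm state without meeting the size rule. FOXF1, a hedgehog-responsive factor of lateral plate mesoderm, had no read in ectoderm-state cells (0 of 27, which allows a share of up to 11.1%) and was detected in 8 of 62 others, at up to 88.8 CPM. FOXN2 was detected in 11.1% of ectoderm-state and 35.5% of other cells, but its mean differed by only 1.28-fold, with 1 ectoderm-state cell at 243.4 CPM. FOXK1, which belongs with FOXK2 to a pair of repressors linked to metabolism, was detected in 11.1%, 26.8% and 23.8% of the 3 states. KLF3, a repressor that recruits CTBP proteins, stood just outside the rule in the opposite direction: it was detected in 63% of ectoderm-state cells, 26.8% of CDX2-detecting and 33.3% of CDX2-non-detecting cells, at a 1.70-fold higher mean than in all others. In X09 cells 85.7% of the ectoderm state detected KLF3, and in X29 cells 38.5%.

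**Figure D2:**
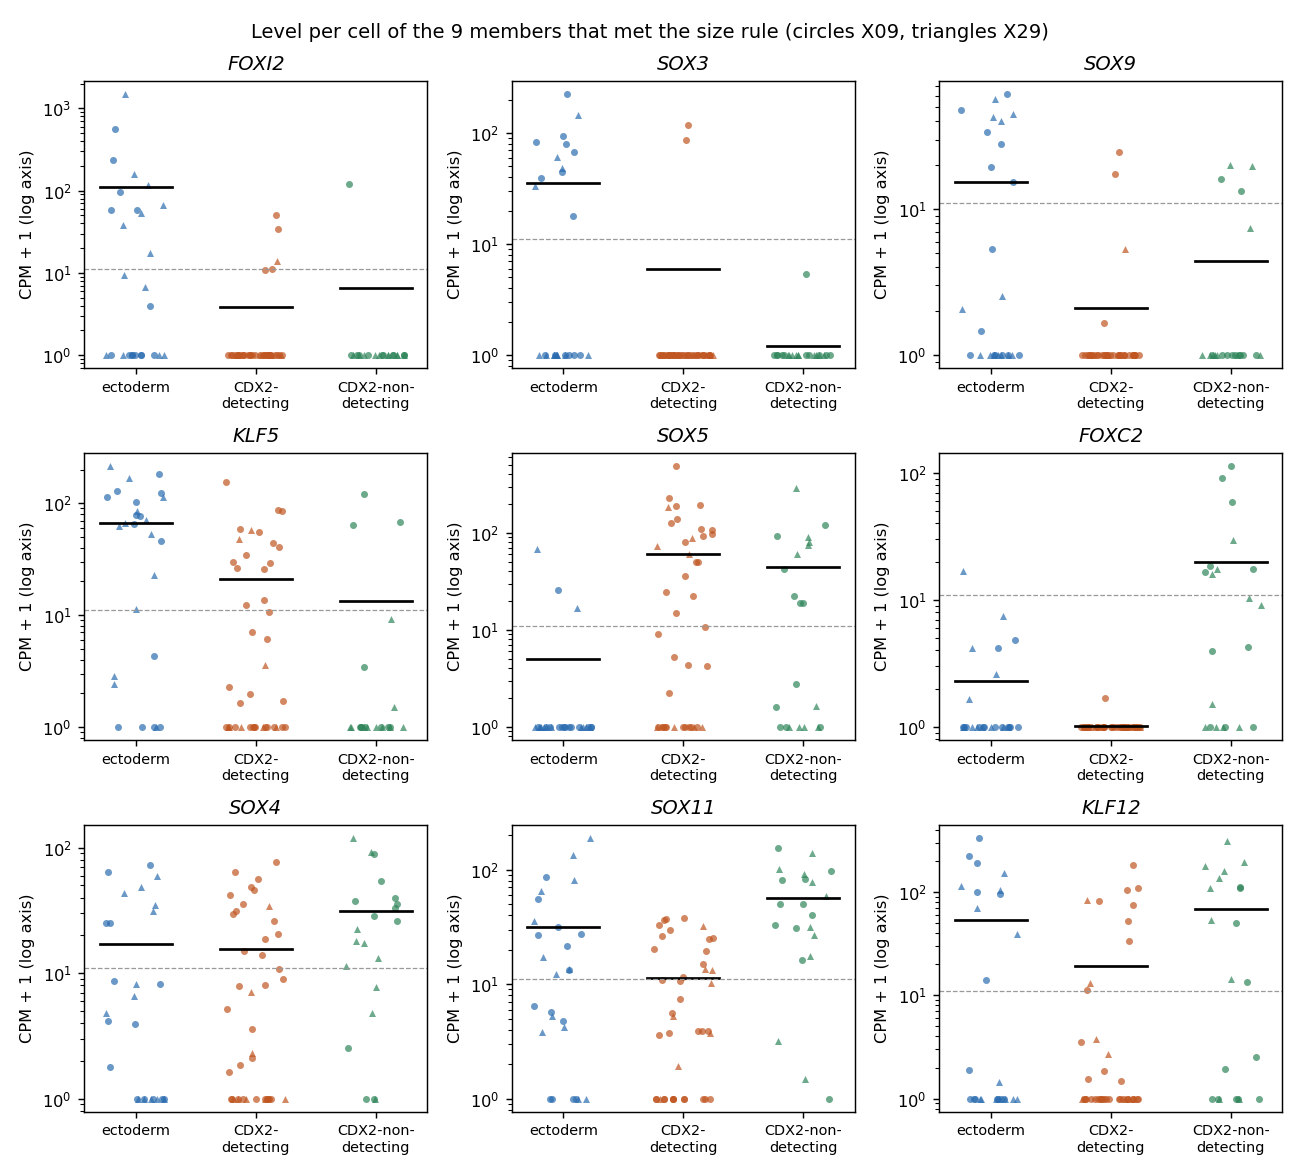
Level in each cell (CPM + 1, log axis) of the 9 members that met the size rule between ectoderm-state and other cells or between CDX2-detecting and CDX2-non-detecting other cells. Circles are X09 cells, triangles X29 cells, black bars the mean plus 1, and dashed lines the detection limit of 10 CPM. FOXC2 has no CDX2-detecting other cell above 0.70 CPM. The states overlap for every gene shown, FOXC2 included, since some CDX2-non-detecting cells have no FOXC2 read.

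Outside the ectoderm state, no member was higher in CDX2-detecting cells, beside 4.17% of all 9280 genes compared, and 4 of 27 members (14.8%) were higher in CDX2-non-detecting cells, beside 2.59% of all genes. These were SOX11, SOX4, FOXC2 and KLF12. The median log2 ratio of CDX2-detecting to CDX2-non-detecting cells was -0.84 over the 27 members and -0.04 over all genes. The groups also differed in other markers. HAND2, COL3A1, COL1A2 and ZEB1 of the lateral plate list, MSX1 of the neural crest list and MYL4 of heart muscle were higher with CDX2, and TWIST1 was higher without it. NCAM1, a neural adhesion molecule, the endothelial genes KDR, ERG and EGFL7, and APELA were higher without CDX2. The summed endothelial markers ran from 0 to 7453 CPM with a median of 42.7 CPM in CDX2-detecting cells. In CDX2-non-detecting cells they ran from 0 to 9422 CPM with a median of 192.3 CPM. Each gene is therefore also given without the 5 cells that detected at least 5 of 11 endothelial markers. The count of 4 of 27 members and the median log2 ratio over the members include those cells, 4 of which were CDX2-non-detecting. Among CDX2-non-detecting cells, KLF2, SOX18 and FOXO1, which are among the 27, were detected only in those cells. The median was not recomputed without them.

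SOX11 and SOX4 are SOXC factors of progenitor cells in neural and mesenchymal tissues. SOX11 was detected in 18 of 21 CDX2-non-detecting cells (85.7%, interval 63.7 to 97.0%), at 0 to 153.3 CPM with a median of 49 CPM. In CDX2-detecting cells it was detected in 15 of 41 (36.6%, interval 22.1 to 53.1%), at 0 to 36.9 CPM with a median of 4.25 CPM. The ranges overlapped below 36.9 CPM, and the CDX2-non-detecting median lay above every CDX2-detecting cell. Mean SOX11 was 55.6 ± 43.9 CPM (SD, 21 cells) against 10.3 ± 12.2 CPM (SD, 41 cells), 5.00-fold. Both prefixes showed it, with 90.9% against 36.4% of X09 cells and 80% against 37.5% of X29 cells. Without the endothelial-marker cells the shares were 94.1% of 17 and 35% of 40 cells.

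SOX4 was detected in 15 of 21 CDX2-non-detecting cells (71.4%, interval 47.8 to 88.7%) and 15 of 41 CDX2-detecting cells (36.6%, interval 22.1 to 53.1%), at medians of 21.4 and 4.19 CPM. The mean differed by 2.03-fold, 30.4 ± 32.9 against 14.5 ± 20.2 CPM (SD, 21 and 41 cells), which only just passed the 2-fold limit. Without the endothelial-marker cells SOX4 was detected in 70.6% of 17 and 35% of 40 cells, and the log2 ratio of CDX2-detecting to CDX2-non-detecting cells was -0.96, short of the 2-fold limit. The SOX4 call was kept in 3 of 14 other settings and was lost when any of 26 single cells was left out. Cells with both SOXC genes made up 14 of 21 CDX2-non-detecting, 10 of 41 CDX2-detecting and 3 of 27 ectoderm-state cells.

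FOXC2, a factor of paraxial mesenchyme and developing vessels, was not detected in any CDX2-detecting cell outside the ectoderm state. It was detected in 9 of 21 CDX2-non-detecting cells (42.9%, interval 21.8 to 66%), at 0 to 112.5 CPM with a median of 8.19 CPM. The CDX2-detecting cells (0 of 41, which allows a share of up to 7.32%) together held 1 FOXC2 read, at 0.70 CPM in 1 cell. FOXC2 means were 18.8 ± 30.9 CPM (SD, 21 cells) and 0.0171 ± 0.109 CPM (SD, 41 cells). The X09 cells contributed 6 of the 9 detecting cells and the X29 cells 3. The FOXC2 call was lost at a detection limit of 50 CPM, which also redrew the groups of cells. Without the endothelial-marker cells FOXC2 was detected in 8 of 17 CDX2-non-detecting cells and had no read in CDX2-detecting ones. A single ectoderm-state cell detected FOXC2, and FOXC1, its closest relative, was detected in no cell of any state.

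KLF12, first known as a repressor of the TFAP2A gene in mammals, was detected in 12 of 21 CDX2-non-detecting cells (57.1%, interval 34 to 78.2%) and 10 of 41 CDX2-detecting cells (24.4%, interval 12.4 to 40.3%). Its means were 68.1 ± 87.1 CPM (SD, 21 cells) and 18.1 ± 40.04 CPM (SD, 41 cells), 3.61-fold. The difference rested mainly on X29 cells, where 8 of 10 against 2 of 8 cells detected KLF12, while in X09 cells it was 4 of 11 against 8 of 33. With X09 cells alone the log2 ratio was -0.38 and the call was lost. It was also lost at a limit of 50 CPM, at 5 or more reads, when the ectoderm state required all 3 genes, and when either of 2 single cells was left out. The settings of limit and reads also redrew the groups of cells. Without the endothelial-marker cells KLF12 was detected in 10 of 17 and 9 of 40 cells and met the rule.

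Of 21 CDX2-non-detecting cells, 7 detected all 4 genes, 4 detected 3, 5 detected 2, 4 detected 1 and 1 detected none. The 4 were chosen by their level in these cells, so fewer in the other states is no further result. All 9 CDX2-non-detecting cells with FOXC2 also detected both SOX4 and SOX11. A further 5 cells had both SOXC genes without FOXC2, and the remaining 7 had neither FOXC2 nor both SOXC genes. Of those 9 cells with FOXC2, 7 detected NCAM1 and 7 TWIST1, against 6 and 5 of the other 12. The endothelial genes KDR and CDH5 were detected in 3 and 2 of the 9, against 5 and 3 of the 12. Those 12 included all 3 of the 21 cells with under 3000 genes or over 20% mitochondrial reads. The nesting of FOXC2 with the SOXC genes was noticed after the values were seen.

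CDX2 detection also divided the ectoderm state, into 7 cells with CDX2 and 20 without, where only X09 cells were numerous enough for the check of direction. Here 2 of 27 members were higher with CDX2 (7.41%, beside 7.73% of all 10320 genes) and 3 were higher without it (11.1%, beside 8.49%). The shares are near the background, so the counts are no result about the members, and the 5 genes are described by their values. SOX11 was detected in none of the 7 CDX2-detecting cells, with at most 5.47 CPM, and in 15 of the 20 others, at up to 189.2 CPM. The call within the ectoderm state was lost at a limit of 50 CPM and at 5 or more reads. Both settings also redrew the ectoderm state and the CDX2 groups. SOX11 was lower in the CDX2-detecting cells of both layers, and over all cells it was detected in 15 of 48 CDX2-detecting and 33 of 41 CDX2-non-detecting cells. This comparison rests on the same CDX2 cut in each layer.

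FOXI2 and SOX3 lay on the same side as SOX11 in the ectoderm state. FOXI2 was detected in none of the 7 cells with CDX2, where it reached 5.68 CPM, and in 12 of the 20 without it. SOX3 was detected in 1 of 7 and 11 of 20, and its call was lost at 5 or more reads. SOX9 and FOXO1 lay on the opposite side. SOX9 was detected in 5 of 7 cells with CDX2 and 5 of 20 without, at means of 32 and 8.25 CPM. The SOX9 call by CDX2 was lost at a limit of 50 CPM. FOXO1, a factor restrained by insulin signalling, was detected in 5 of 7 cells, at 0 to 358.5 CPM, and in 1 of 20, at 10.7 CPM. The CDX2-detecting ectoderm cells held less of the summed mesoderm markers, with a median of 3.91 CPM and at most 165.3 CPM, against 47.5 CPM and at most 1539 CPM. They also differed in markers of other types: GATA3, ETS1, NKX2-5, TNNT2 and MYH7 were lower with CDX2, NKX2-5 being detected in 0 of 7 and 11 of 20 cells, and GRHL3 and APELA were higher. They were also higher in 4 of 14 dissociation stress genes, FOS, EGR1, ATF3 and JUND, beside 7.73% of all genes compared. JUND had means of 6.66 and 2.11 CPM, under the detection limit, and was detected in 2 of 7 and 1 of 20 cells. The part of these markers in the FOX and SOX values was not tested.

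**Figure D3:**
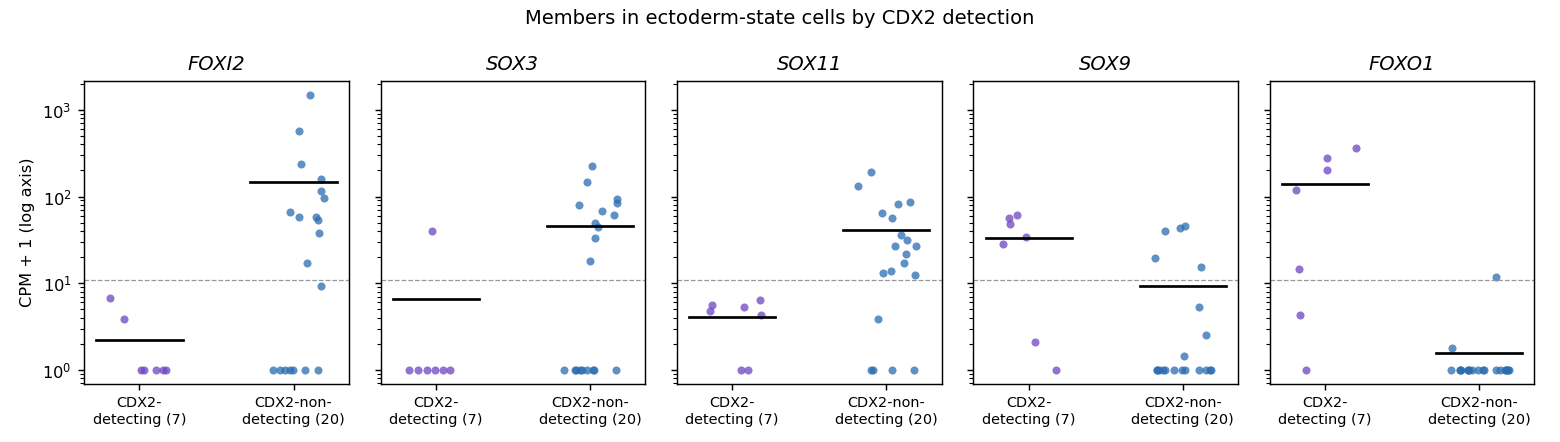
Level (CPM + 1, log axis) of FOXI2, SOX3, SOX11, SOX9 and FOXO1 in the 27 ectoderm-state cells, divided into 7 CDX2-detecting (purple) and 20 CDX2-non-detecting cells (blue). Bars are the mean of CPM + 1 and dashed lines the detection limit; no CDX2-detecting cell passes the limit for FOXI2 or SOX11, while 5 of 7 pass it for SOX9 and for FOXO1.

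KLF2, SOX17 and SOX18 were found in another group of cells. SOX17 and SOX18 are SOXF factors of endothelium, SOX17 also being a factor of endoderm, and KLF2 is known as a flow-responsive factor of endothelial cells. The 5 cells with at least 5 endothelial markers, 2 X09 and 3 X29 cells, carried 8 to 11 of 11 such markers, while no other cell carried more than 3. Of these cells 4 were CDX2-non-detecting, 1 was CDX2-detecting and none was in the ectoderm state. SOX18 was detected in all 5, at 442.8, 436.3, 378.1, 369.3 and 174.4 CPM in the cells with 9, 10, 11, 8 and 9 markers. KLF2 was listed at 0 in the first of these cells and had 187.7, 126.5, 310.3 and 309.0 CPM in the others. SOX17 had 21.7, 0, 0, 5.18 and 432.6 CPM in the same order. The last of these cells, with the most SOX17, had 453090 reads, the fewest of the 5, and 26.3% mitochondrial reads.

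None of the 84 remaining cells detected SOX17, SOX18 or KLF2 (0 of 84, which allows a share of up to 3.57% each). SOX17 had no read there, KLF2 at most 0.924 CPM and SOX18 at most 1.29 CPM. The 5 cells thus held 100% of SOX17 reads, 99.8% of KLF2 reads and 99.6% of SOX18 reads. Beside these 3 of the 36 members detected in at least 2 cells, 0.391% of 12284 genes were detected in 2 or more of the 5 cells and in no other cell. The 3 genes were singled out after their values were seen. Other members were not so divided: KLF6 was detected in all 5 and in 72 of 84 remaining cells, FOXO1 in 4 and 7, FOXK1 in 4 and 15, and SOX4 in 4 and 35, while FOXI2, SOX3, SOX9, KLF5 and FOXF1 were detected in none of the 5. Without these 5 cells FOXO1 met the size rule between the layers, with 6 of 27 ectoderm-state and 1 of 57 other cells detecting it and a log2 ratio of 4.59, and it also did so in X09 cells alone, at 4.60.

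**Figure D4:**
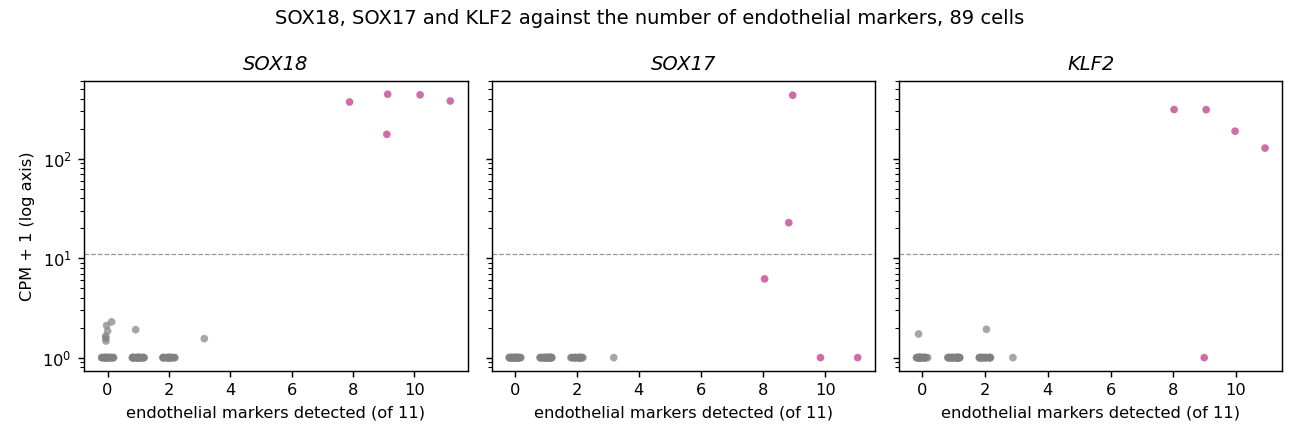
Level of SOX18, SOX17 and KLF2 (CPM + 1, log axis) against the number of endothelial markers detected (of 11) in each of 89 cells, with pink points for the 5 cells at 5 or more markers and dashed lines at the detection limit. Every cell above the limit for any of the 3 genes has 8 markers or more, and no cell lies between 4 and 7 markers.

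Of the 10 shared members, KLF6 was detected in most cells of every state. KLF6 is a broadly expressed factor of the immediate response to injury. It was detected in 24 of 27 ectoderm-state cells (88.9%, interval 70.8 to 97.6%), 37 of 41 CDX2-detecting cells (90.2%, interval 76.9 to 97.3%) and 16 of 21 CDX2-non-detecting cells (76.2%, interval 52.8 to 91.8%). Median KLF6 levels were 219, 182 and 147 CPM, with the highest cells at 1102, 783 and 1015 CPM, so the states overlapped through nearly their whole range. KLF6 did not meet the size rule in either comparison. As context from tissue dissociation, EGR1 alone of 14 stress genes compared met the size rule between the layers, higher in the ectoderm state. FOS, ATF3 and HSPA2 were also 4.17-fold, 2.55-fold and 2.13-fold higher there by mean, short of the share limit. HSPB1 was 3.81-fold higher in the other cells, likewise short of that limit. Between CDX2-detecting and CDX2-non-detecting other cells FOSL2 alone of 13 met the rule, higher with CDX2. The part of dissociation in the KLF6 level was not tested.

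KLF10 and KLF11, both TGF-beta-inducible repressors, were detected in 48.1%, 39% and 47.6% and in 29.6%, 22% and 42.9% of the ectoderm-state, CDX2-detecting and CDX2-non-detecting cells. Among FOX factors, FOXN3, a checkpoint repressor, was detected in 40.7%, 31.7% and 28.6% of the 3 states and FOXK2 in 25.9%, 24.4% and 23.8%. FOXM1, a factor that drives genes of mitosis, was detected in 33.3%, 26.8% and 28.6%. The intervals of these shares were wide, for FOXK2 from 8.22 to 47.2% in CDX2-non-detecting cells, so modest differences between states were not detectable at this number of cells.

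The other members were patchy. KLF7, a relative of KLF5 and KLF6, was detected in 29.6%, 14.6% and 33.3% of the 3 states, and FOXO3 in 25.9%, 12.2% and 28.6%. FOXP2, FOXP4 and the row named FOXP3 were each detected in 13 or 14 cells spread over all 3 states. KLF13 was detected in 8 cells, KLF8, a CTBP-recruiting repressor like KLF3, in 6. The rare members FOXA2, KLF9 and SOX21 were detected in 2 cells each, both SOX21 cells being in the ectoderm state and both KLF9 cells CDX2-detecting. FOXA2 is a factor of endoderm and notochord. FOXJ2 was detected in 4 cells, KLF15 in 7, and SOX8 in 1 ectoderm-state cell at 181.9 CPM. FOXC1 and SOX14, a SOXB2 factor like SOX21, were detected in none of 89 cells, although 29 and 7 reads were assigned to them, with highest levels of 7.29 and 2.06 CPM.

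Pairs of close relatives were found together in differing numbers of cells, which depend on how many cells detected each gene. Whether pairs met more often than their single counts imply was not tested. SOX4 and SOX11 were both detected in 27 of 89 cells and KLF10 and KLF11 in 13. FOXN2 and FOXN3 were both detected in 11 cells, FOXK1 and FOXK2 in 8, FOXO1 and FOXO3 in 3, FOXP2 and FOXP4 in 3, and SOX17 and SOX18 in 2. No cell detected SOX8 with SOX9 or KLF9 with KLF13, but SOX8 was detected in only 1 cell and KLF9 in 2. Of KLF5, KLF6 and KLF7, 80 of 89 cells detected at least 1 and 8 detected all 3, 5 of these in the ectoderm state. Of the 3 CTBP-recruiting factors KLF3, KLF8 and KLF12, at least 1 was detected in 77.8% of ectoderm-state, 48.8% of CDX2-detecting and 66.7% of CDX2-non-detecting cells. A gene missing from a single cell may have escaped capture, so these counts do not show absence.

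FOXM1 was described further through genes of mitosis, many of them known as its targets. Of 21 genes of mitosis in the list, 16 had a row, and 9 of these (beside 2.67% of 9695 genes) were higher in the 26 FOXM1-detecting cells than in the 63 others. The median log2 ratio was 1.19 over the list and 0.06 over all genes compared. NEK2, a centrosome kinase, was detected in 17 of 26 cells with FOXM1 (65.4%) and 6 of 63 without (9.52%), at means of 143.5 and 7.42 CPM. CENPF, a kinetochore protein, was detected in 80.8% and 34.9%, and BUB1, a spindle checkpoint kinase, in 76.9% and 28.6%. The others were AURKA, BUB1B, CCNB2, CDC20, CENPE and TOP2A. CDK1, the kinase of mitotic entry, was detected in 100% and 90.5% and did not meet the rule, nor did BIRC5 and PLK1.

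None of the 16 genes of the list met the rule between ectoderm-state and other cells. Outside the ectoderm state 2 of 16 were higher in CDX2-detecting cells, beside 4.17% of all genes compared. The summed level of the list had medians of 3301 CPM there and 1594 CPM in CDX2-non-detecting cells. Within the ectoderm state CDC25B alone met the rule by CDX2, higher without it, beside 8.49% of all genes compared. Mean levels were higher with FOXM1 for 14 of 16 genes within the ectoderm state, 16 of 16 within the other cells, 15 of 16 in X09 cells and 14 of 16 in X29 cells. The summed level of the list had a median of 6129 CPM with FOXM1 (range 643 to 10561 CPM) and 1868 CPM without it (range 15.4 to 11144 CPM), so the groups overlapped and the highest cell was one that did not detect FOXM1. FOXM1-detecting cells had more genes with a read, a median of 6500 against 5391. None of the 7 cells with under 3000 genes or over 20% mitochondrial reads detected FOXM1. With every cell thinned to 300000 reads 8 of the 16 genes met the rule. No other member met the rule in this comparison, in which 25 were compared, and only 0.0309% of all genes were higher without FOXM1.

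**Figure D5:**
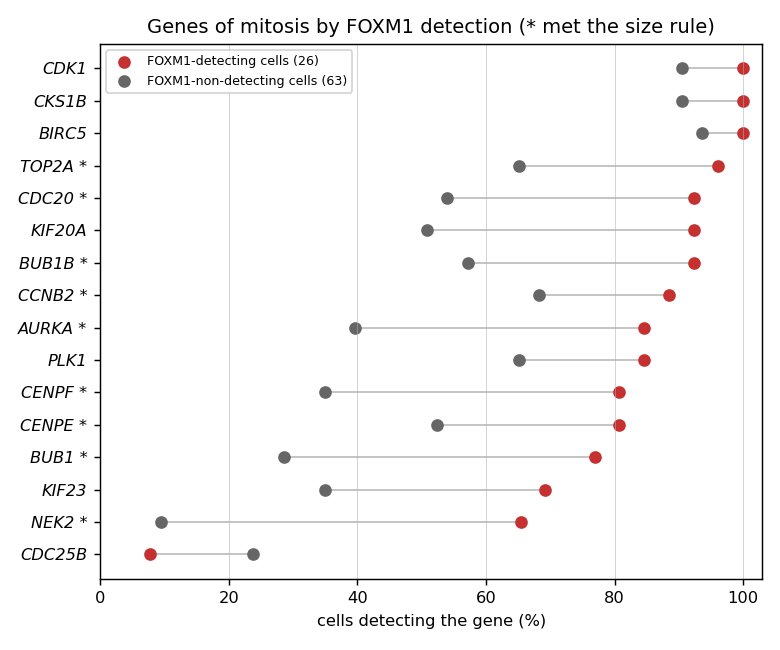
Share of cells (x axis, %) detecting each of 16 genes of mitosis among 26 FOXM1-detecting cells (red) and 63 other cells (grey), with asterisks for the 9 genes that met the size rule. All but CDC25B lie at a higher share with FOXM1, and NEK2 goes from 9.52 to 65.4%.

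Genes that work with or beside the 3 families were also compared between the layers. Those that met the size rule were higher in the other cells, beside 4.76% of all genes compared. The lists are short, so their counts are no result about the lists. Among 4 SP factors compared, the zinc finger relatives of KLF, only SP5 met the rule: it was detected in 62.9% of other and 3.70% of ectoderm-state cells. Among 6 other HMG-box factors only LEF1, a nuclear effector of WNT signalling, did, with 83.9% of other and 55.6% of ectoderm-state cells detecting it. Of 7 hedgehog pathway genes compared only GLI3 did, at 83.9% and 51.9%. None of 7 corepressors, 2 SOX partners and 3 genes of motile cilia met it between the layers. By CDX2, none of the genes of these 6 lists met the rule outside the ectoderm state. Of all genes compared there, 4.17% were higher with CDX2 and 2.59% without it. Within the ectoderm state CDON of the hedgehog list and the corepressors CTBP1 and SIN3A were higher without CDX2, and the HMG-box factor BBX was higher with it. Of all genes compared within the ectoderm state, 8.49% were higher without CDX2 and 7.73% with it. TEKT1, a cilium gene, was the only gene of these lists higher with FOXM1, beside 2.67% of all genes compared.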

How the data were processed

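The deposited table holds raw counts of reads per gene for 89 cells, made by the authors. Per the submitters' processing notes, HISAT2 2.1.0, featureCounts and the GRCg6a build were used. The program settings, not given in the sources used here, are unknown. Per the labels' protocols, the SMARTer v4 kit (cDNA) and Nextera XT (libraries) were used without molecular identifiers, so reads are not independent molecules.

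From these counts, CPM was computed per cell over 13823 gene rows, without the 3 spike-in rows, which took 5.99% of reads. Of the gene rows, 3371 carried an Ensembl identifier that could not be paired with a symbol here, and no sequence or coordinate was used. Analyses ran in Python 3.11.15 with numpy 2.4.6, pandas 2.3.3 and scipy 1.17.1. The size rule was applied to the whole table, leaving out genes that define the groups compared, and was tested on simulated data. There it missed many genes set higher on one side, so a gene that did not meet it may still differ. It also called some genes left unchanged, so a gene that met it need not differ. With 89 cells, no doublets were called or removed.

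The members, lists and states were chosen with earlier results of these data known. Every member could be named, except 1 that is not reported here, with full values for members that met the size rule, for shared members and for related sets. Of each list the genes that met the rule and at most 3 others were named. The comparison within the ectoderm state and that of endothelial-marker cells were recomputed under alternatives added after the data were seen. Alternatives changed the detection limit, reads needed, scaling, pseudocount, state rule, depth and cells used. A changed limit, read number or scaling also redrew the ectoderm, CDX2 and FOXM1 groups, while thinning of reads kept them.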

Additional observations from a re-analysis of the deposited data

How the results depend on the processing

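No paired analysis was possible because the pool is 1 sample and the results come from no test. Changes of the detection limit, reads needed or scaling also redrew the groups of cells compared. Of 14 alternatives and the removal of each cell in turn, the following moved a count by more than 1.5 times. At a detection limit of 50 CPM, members higher in the ectoderm state fell from 4 to 1, members higher in CDX2-non-detecting other cells from 4 to 1, shared members from 10 to 2, and undetected members rose from 3 to 7. At 5 or more reads, members higher in CDX2-detecting other cells numbered 1 in place of 0, those higher in CDX2-non-detecting cells 2, and undetected members 1. With X09 cells alone 3 members in place of 1 were higher outside the ectoderm state. With X29 cells alone, 1 member was higher in CDX2-detecting and 14 in CDX2-non-detecting other cells, 6 were shared and 6 undetected. The 10 X29 CDX2-non-detecting other cells included 3 endothelial-marker cells. Of those 14 members, KLF2, SOX18 and FOXO1 were detected among the 10 cells only in these 3. With the ectoderm state by at least 1 of 3 genes, 1 member was higher in CDX2-detecting other cells, and by all 3 genes 2 were higher in CDX2-non-detecting ones. Without endothelial-marker cells 6 members were undetected. Leaving out single cells gave 1 to 2 members higher outside the ectoderm state, 0 to 1 higher in CDX2-detecting and 2 to 5 in CDX2-non-detecting other cells.

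Within the ectoderm state, members higher with CDX2 numbered 4 at 50 CPM and 7 in X09 cells alone in place of 2, and those higher without CDX2 numbered 1 at 5 reads and 10 in X29 cells alone in place of 3. In X09 cells alone 1 member in place of 3 was detected in at least 2 endothelial-marker cells and in no other cell. FOXI2 turned direction in its mean, to a log2 ratio of -0.49, when the ectoderm state required all 3 genes. That setting moved the highest FOXI2 cell, at 1487 CPM, to the other cells. KLF5, SOX5 and SOX11 outside the ectoderm state, and FOXI2 and FOXO1 within it by CDX2, kept their calls under all 14 alternatives. For FOXI2 and FOXO1 the setting of X29 cells alone is a weak check. It had 2 CDX2-detecting cells, with FOXO1 detected in 1 of these and in 1 of 11 others. The cause of these changes was not tested. X29 gave only 8 CDX2-detecting other cells and 2 CDX2-detecting ectoderm cells, which limits those counts, and genes at a few reads per cell are limited by depth.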
